A study of Mus musculus with 13 samples.

Results

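The T cell gene module is a set of 37 mouse genes that encode the T cell receptor and its CD3 partners, the coreceptors, the kinases and adaptors next to the receptor, costimulatory receptors, regulatory T cell proteins, cytokine receptors and lineage transcription factors. Members were found by symbol among the 55357 genes of the count table, and 37 of 37 were matched. All 37 also passed the filter on low counts, which left 22876 genes for testing. The measurements are total RNA-seq counts from mouse tail tissue with lymphedema, the swelling that follows failed lymph drainage. The tissue was taken at day 28 after TNT from mice aged 12 weeks. There were 7 libraries of the group TNTSham and 6 of the group TNTProx1. TNT is used in this field for tissue nanotransfection, in which a brief electric field carries nucleic acid into the skin, and Prox1 is a transcription factor that gives lymphatic endothelial cells their identity; the labels give neither the cargo of the sham group nor the strain or sex of the mice. They also do not say whether each library came from a separate mouse, so p-values measure the spread between these libraries, which may in part be technical.

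Most T cells recognise peptides on MHC molecules through a receptor of one alpha and one beta chain, which signals through the CD3 and zeta chains, the kinases Lck and Zap70 and the adaptor Lat. A smaller class carries gamma and delta chains and is a normal resident of mouse skin. Costimulatory receptors such as Cd28 and Icos add a further signal, and regulatory T cells, marked by Foxp3, restrain the response. CD4+ T cells are known to gather in lymphedematous skin and to promote its fibrosis.

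Values below are in CPM, counts divided by the size of the library and brought to a common total, scaled by edgeR's trimmed mean of M-values (TMM). A log2 fold change is TNTProx1 over TNTSham with its standard error, and an adjusted p is from edgeR's quasi-likelihood test with Benjamini-Hochberg adjustment over the 22876 genes. The libraries held between 29691929 and 48007392 counts. TNTProx1 4, 5 and 6 stood apart from the other libraries. Malat1, a nuclear RNA, lay between 3410 and 3539 CPM in them and between 8979 and 16810 CPM in the other 10. Of 20856 genes with an expected count of at least 20 in TNTProx1 4, from the median of the other libraries, 1383 had no count, against 126 in TNTProx1 6, 53 in TNTProx1 5 and at most 14 in any other library. Values over the 10 libraries without these 3 are therefore given beside those over 13, for the counts over the module and for each member that turned or moved by over 1.5 times. T cell RNA was present throughout: of the defining markers Cd3e, Cd3d, Cd3g, Trac, Trbc2, Cd2 and Cd5, the lowest count in any library was 7, for Cd3d. The zeros at Ubash3a and Cd8b1, below, are both from TNTProx1 4.

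Most T cell genes were at a lower level in the TNTProx1 libraries, but no member passed the adjusted threshold of 0.05. Of the 37 members, 28 were lower by sign and 9 were higher, with a median log2 fold change of -0.34, while over all tested genes 52.3% were lower and the median was -0.02. At an unadjusted p under 0.05, 10 members differed in either direction, or 27.0%, against 12.2% of all genes. Of these, 9 members were lower (Cd3g, Trac, Lck, Themis, Ubash3a, Sh2d2a, Icos, Tnfrsf4 and Ctla4), or 24.3% of the module against 3.92% of all genes. The remaining 1 member was higher, the costimulatory receptor Tnfrsf9, against 8.33% of all genes. The members were chosen with earlier results of these data known, so these shares describe the module and are not a test of it. At the adjusted threshold edgeR called 0 of the 37 members and 0.0% of all genes, with 2802 genes at an unadjusted p under 0.05. The smallest adjusted p of a member was 0.123, for Icos. DESeq2 called 1 member, Icos, lower at an adjusted p of 0.00588, where 0.726% of all genes were called lower. limma's voom with quality weights called 0 members, where it called 0.647% of all genes lower. In no member did the groups separate fully, against 0.214% of all genes separated with TNTProx1 lower and 0.398% with TNTProx1 higher. At an unadjusted p under 0.05 voom had 2 members higher, Tnfrsf9 and Trdc, against 9.49% of all genes. In whole tissue, fewer T cells and less of an RNA in each T cell cannot be told apart.

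**Figure D1:**
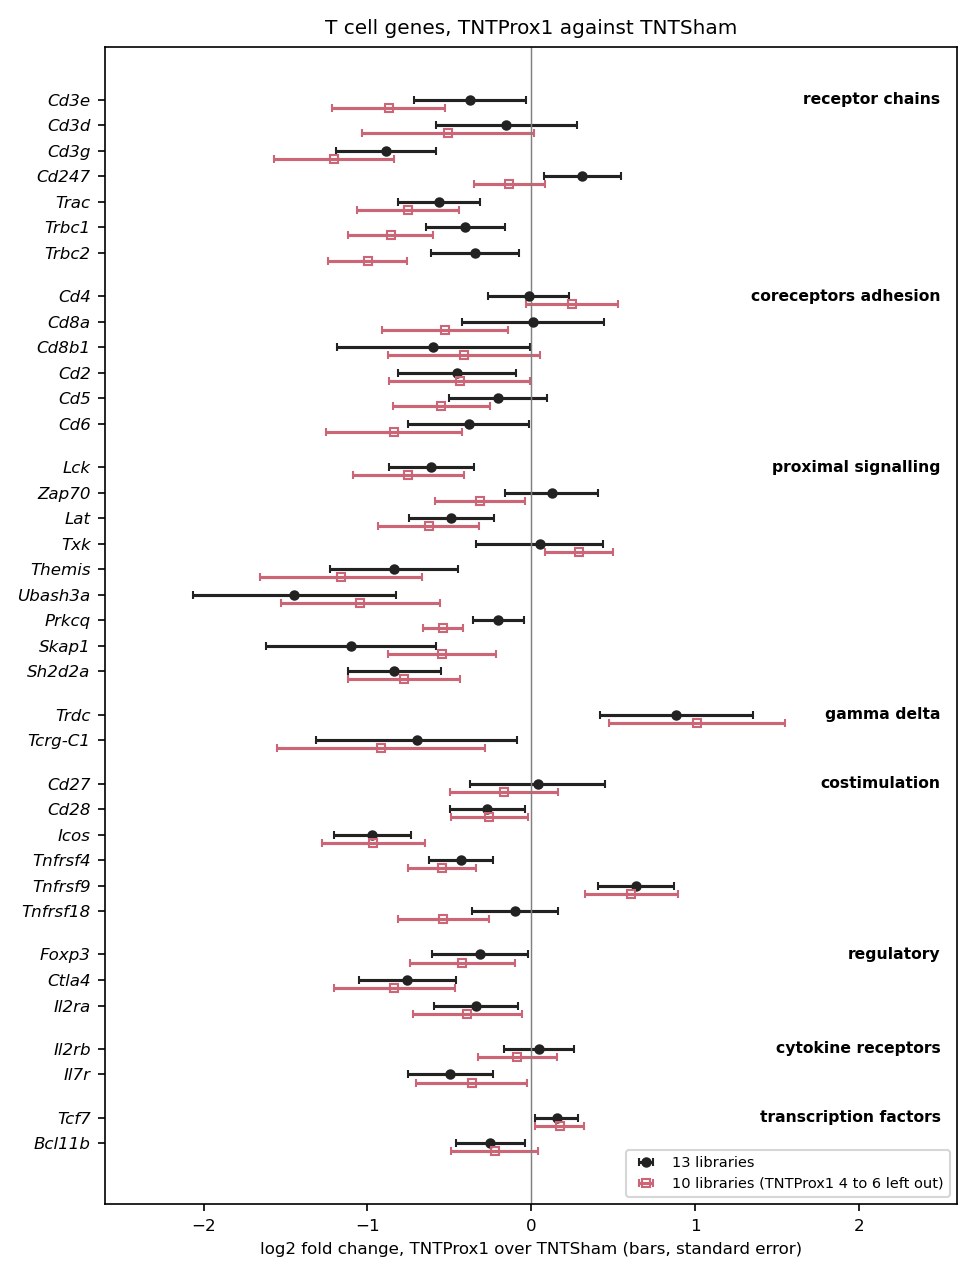
Log2 fold change of each of the 37 T cell genes, TNTProx1 over TNTSham, with bars for the standard error; filled circles are the fit over 13 libraries and open squares that over 10. Most points lie left of 0, Icos at -0.97 and Cd3g at -0.89 among them, while Tnfrsf9 at 0.64 and Trdc at 0.89 lie right of it.

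The count of lower members depended on single libraries. TNTSham 4 held the highest value of 19 of the 37 members, and TNTProx1 3 the lowest of 16. Without TNTSham 4, 25 members were lower by sign, against 51.8% of all genes, and 4 remained at an unadjusted p under 0.05 (Cd3g, Sh2d2a, Icos and Ctla4), or 10.8% against 2.96% of all genes. Without TNTSham 7, 5 were lower at that threshold, against 3.19% of all genes. Without TNTProx1 3 the count was also 5, against 4.44%. Cd3g, Sh2d2a and Icos were among the members at that threshold in each of these fits. Over 10 libraries 12 members were lower, or 32.4% against 12.1% of all genes, and 32 were lower by sign against 50.2%, while 0 were higher at that threshold against 9.34%. Without TNTProx1 4 alone 11 members were lower, against 3.88% of all genes. The median of the 37 was -0.54 over 10 libraries. The 12 over 10 libraries included Cd3e, Trbc1, Trbc2 and Prkcq, and 8 of them were shared with the 9 of the full set. No member passed the adjusted threshold there either, where edgeR called 0.0% of all genes. Over the 22 alternative settings, 26 members kept their sign in each fit that gave a value and 11 turned in at least 1: Cd3d, Cd247, Cd4, Cd8a, Cd5, Zap70, Txk, Cd27, Tnfrsf18, Il2rb and Bcl11b. Leaving out TNTSham 4 moved Themis to -0.44, Il7r to -0.25, Il2ra to -0.17, Foxp3 to -0.17, Cd3e to -0.17, Trac to -0.37 and Cd6 to -0.21. The same fit turned Cd3d to 0.07, Cd4 to 0.09, Cd8a to -0.03, Cd5 to 0.0009 and Tnfrsf18 to 0.0058.

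**Figure D2:**
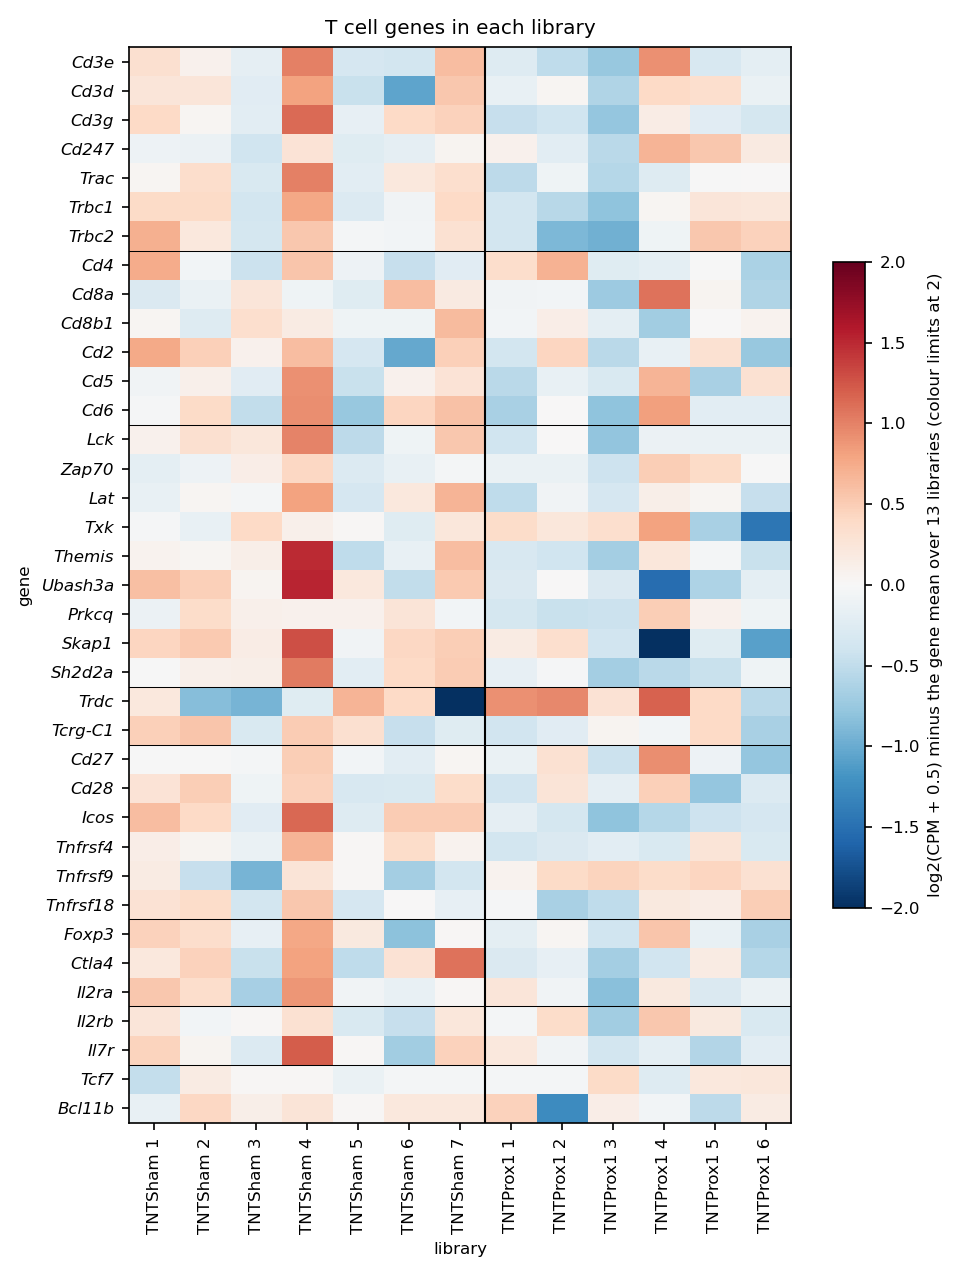
Colour map of the 37 T cell genes (rows, grouped by role) in the 13 libraries (columns), as log2(CPM + 0.5) minus the gene's mean over the libraries. The median of the members' deviations was 0.68 in TNTSham 4 and -0.43 in TNTProx1 3.

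The receptor chains were led by the beta constant regions. Adjusted for exon length, Trbc2 stood at 19.4 ± 5.13 CPM per kilobase in TNTSham (SD, n = 7) and Trbc1 at 10.4 ± 3.15, with the alpha constant region Trac at 3.94 ± 1.49 and Cd3e at 0.933 ± 0.402. The separation of Trbc1 from Trbc2 is uncertain, because 43.7% of the 36-base words of Trbc1 also occur in Trbc2, and 47.3% of the words of Trbc2 occur in Trbc1. Bases 201 to 260 of each transcript show how close the constant regions are, and the capital marks the only position at which they differ.

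Trbc1: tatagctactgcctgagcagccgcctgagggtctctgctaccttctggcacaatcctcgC
Trbc2: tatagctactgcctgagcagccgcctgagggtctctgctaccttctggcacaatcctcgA

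Of the 7 receptor genes 6 were lower by sign, against 52.3% of all genes, with a median log2 fold change of -0.37. Among them 2, Cd3g and Trac, were lower at an unadjusted p under 0.05, against 3.92% of all genes. Cd3g, the gamma chain of the CD3 complex, ranged from 1.33 to 4.15 CPM in TNTSham (median 2.29) and from 0.732 to 1.85 CPM in TNTProx1 (median 1.13). In 5 of 6 TNTProx1 libraries it lay below the lowest TNTSham library. Its log2 fold change was -0.89 ± 0.31 (adjusted p = 0.248), and -1.21 ± 0.37 over 10 libraries. Trac ranged from 2.31 to 6.51 CPM in TNTSham (median 3.54) and from 1.84 to 3.01 CPM in TNTProx1 (median 2.59), so the groups overlapped. The log2 fold change of Trac was -0.56 ± 0.25 (adjusted p = 0.383), and -0.75 ± 0.31 over 10 libraries. Cd3e, the CD3 chain most used to mark T cells, ranged from 2.32 to 6.77 CPM in TNTSham (median 3.37) and from 1.64 to 6.33 CPM in TNTProx1 (median 2.47). The high TNTProx1 value came from TNTProx1 4, and the log2 fold change of Cd3e was -0.37 ± 0.34 over 13 libraries (adjusted p = 0.697) and -0.87 ± 0.35 over 10. Trbc1 and Trbc2, at -0.40 ± 0.24 and -0.34 ± 0.27, stood at -0.86 ± 0.26 and -1.0 ± 0.24 over 10 libraries. Cd247, the zeta chain, was the exception at 0.31 ± 0.23, and turned to -0.13 ± 0.22 over 10 libraries. Cd3d, the delta chain of the CD3 complex, had a log2 fold change of -0.15 ± 0.43, and -0.51 ± 0.53 over 10 libraries. The median of the 7 was -0.86 over 10 libraries.

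**Figure D3:**
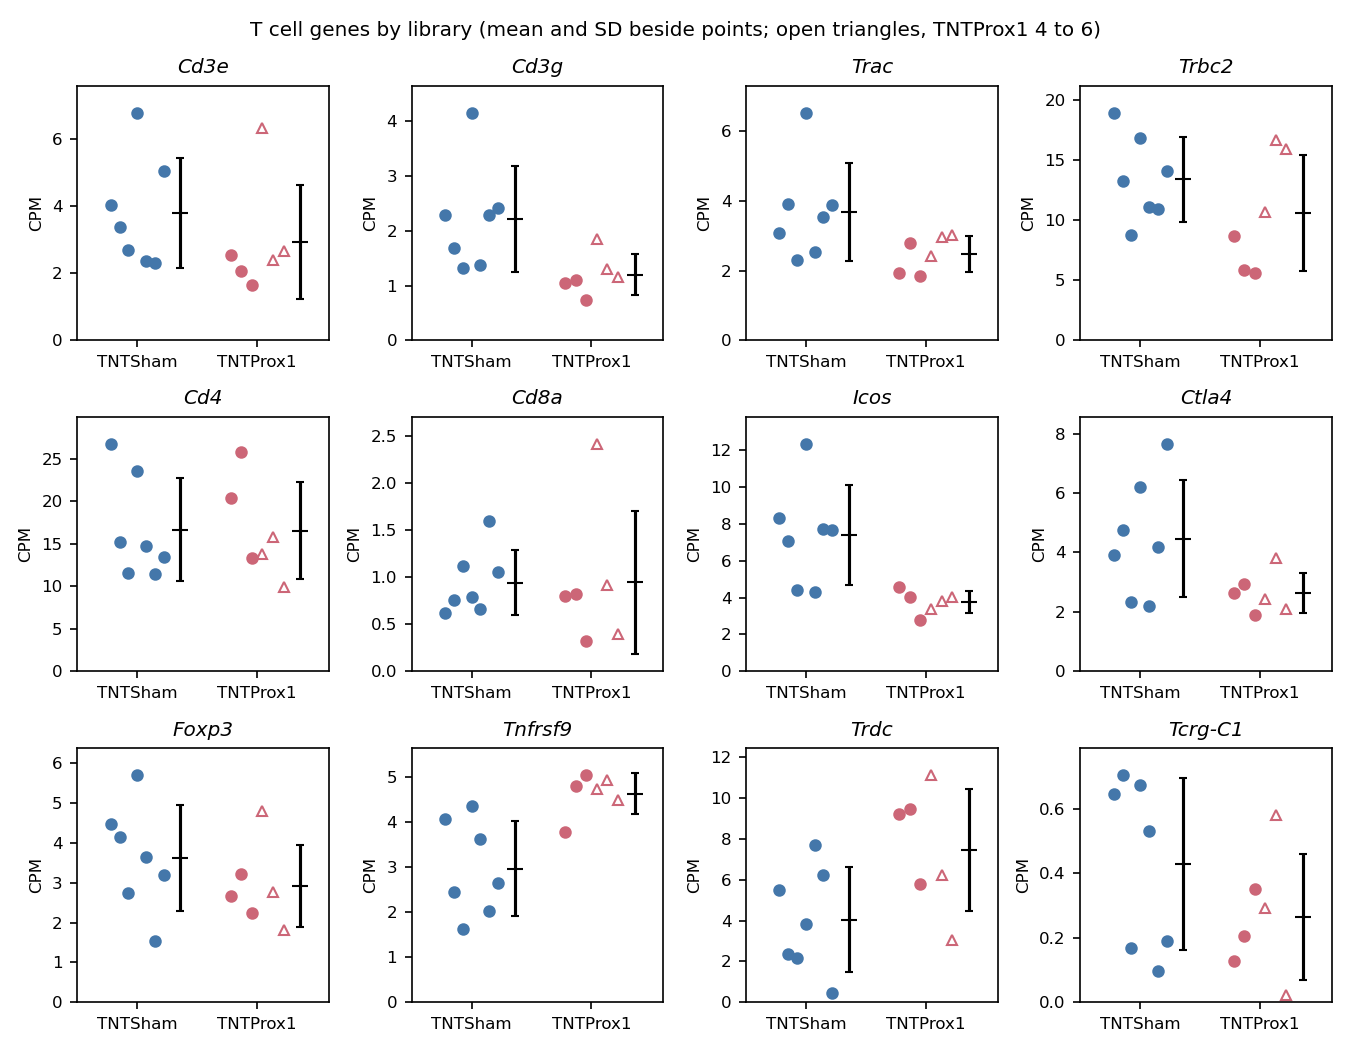
CPM of 12 T cell genes in each library, with circles for libraries, open triangles for TNTProx1 4 to 6, and the group mean with SD beside the points. The groups overlap in every panel; 5 of 6 TNTProx1 libraries lie below all TNTSham libraries for Cd3g and Icos, and 5 of 6 lie above them for Tnfrsf9.

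Cd3g and Cd3d are neighbours read from opposite strands. Their promoter windows are shown with those of Ctla4, a lower member, and Tnfrsf9, the member that was higher, as a sample of the sequence from which these genes start. For Tnfrsf9 the first of its windows is printed. Each is the 250 bases before the RefSeq start in GRCm38.p6, on the strand of the gene, and capitals mark the E-box CAGGTG, read on both strands, which the E proteins of T cell development bind. The windows are Cd3g at chr9:44980432-44980681 on the minus strand, Cd3d at chr9:44981536-44981785 on the plus strand, Ctla4 at chr1:60908775-60909024 on the plus strand and Tnfrsf9 at chr4:150919905-150920154 on the plus strand. These windows are from another build than the counts, which were made on GRCm39.

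Cd3g: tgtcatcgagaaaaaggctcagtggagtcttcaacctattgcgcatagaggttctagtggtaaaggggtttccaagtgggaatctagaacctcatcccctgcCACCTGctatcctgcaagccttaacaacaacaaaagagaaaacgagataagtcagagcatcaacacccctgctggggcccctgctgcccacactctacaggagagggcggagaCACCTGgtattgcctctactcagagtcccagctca
Cd3d: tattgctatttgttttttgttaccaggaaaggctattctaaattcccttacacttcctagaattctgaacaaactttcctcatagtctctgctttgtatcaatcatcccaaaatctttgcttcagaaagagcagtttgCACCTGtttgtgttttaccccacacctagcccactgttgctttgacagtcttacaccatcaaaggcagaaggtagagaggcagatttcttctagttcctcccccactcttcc
Ctla4: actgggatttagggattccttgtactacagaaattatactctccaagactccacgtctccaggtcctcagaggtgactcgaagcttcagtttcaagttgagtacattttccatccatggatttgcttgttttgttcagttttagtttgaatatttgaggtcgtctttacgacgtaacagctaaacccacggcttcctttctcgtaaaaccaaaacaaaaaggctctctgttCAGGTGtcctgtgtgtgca
Tnfrsf9: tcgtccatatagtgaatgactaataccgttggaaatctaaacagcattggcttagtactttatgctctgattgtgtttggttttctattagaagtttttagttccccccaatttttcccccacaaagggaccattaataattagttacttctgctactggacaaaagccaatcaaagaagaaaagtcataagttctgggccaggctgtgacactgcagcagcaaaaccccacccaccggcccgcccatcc

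RefSeq windows were matched for 23 of the 37 members, with 31 windows in all. The E-box was found in 9 of the 31, against 17.2% of 32851 windows of the same length. It was absent from the windows of the lower members Themis, Ubash3a and Tnfrsf4 and from both of Tnfrsf9, and present in Cd247 and Zap70, which were higher by sign over 13 libraries. The ETS motif AGGAAG was found in 15 of the 31 against 29.5%, the RUNX motif TGTGGT in 3 against 14.0%, and the TCF/LEF motif CTTTGA in 5 against 13.8%, each on both strands. The E-box and the ETS motif share the letters AGG. These are matches of letters and not measured binding.

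The coreceptor genes Cd4 and Cd8a had log2 fold changes close to 0 over 13 libraries. Cd4, the coreceptor of helper and regulatory T cells, ranged from 11.4 to 26.7 CPM in TNTSham (median 14.7) and from 9.97 to 25.8 CPM in TNTProx1 (median 14.8). The fitted log2 fold change was -0.01 ± 0.25 (adjusted p = 0.988), and 0.25 ± 0.28 over 10 libraries. Cd8a, the coreceptor of cytotoxic T cells, ranged from 0.617 to 1.6 CPM in TNTSham (median 0.788) and from 0.322 to 2.41 CPM in TNTProx1 (median 0.813). Its log2 fold change was 0.01 ± 0.44 (adjusted p = 0.996), and its direction turned to -0.53 ± 0.38 over 10 libraries, the high value being TNTProx1 4. Per kilobase Cd4 stood at 4.13 ± 1.49 CPM in TNTSham and Cd8a at 0.259 ± 0.0957 (SD, n = 7). Cd4 was thus above Cd3e, at 0.933 ± 0.402, and which cells of the tissue made the Cd4 RNA was not tested. Cd8b1, the beta chain paired with Cd8a, had counts between 0 and 25, with the 0 in TNTProx1 4, and a log2 fold change of -0.60 ± 0.59. The adhesion and modulating receptors Cd2, Cd5 and Cd6 had log2 fold changes of -0.45, -0.20 and -0.38, and of -0.43, -0.55 and -0.84 over 10 libraries. None of the 6 genes had an unadjusted p under 0.05, against 12.2% of all genes in either direction.

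Of the 9 kinases and adaptors next to the receptor, 4 were lower at an unadjusted p under 0.05, against 3.92% of all genes. By sign 7 of the 9 were lower, against 52.3% of all genes, with a median of -0.61. Lck, the kinase that starts receptor signalling, ranged from 2.04 to 6.74 CPM in TNTSham (median 3.77) and from 1.61 to 3.16 CPM in TNTProx1 (median 2.81). For Lck the log2 fold change was -0.61 ± 0.26 (adjusted p = 0.364). Sh2d2a, an adaptor that binds Lck, ranged from 1.30 to 3.74 CPM in TNTSham (median 1.75) and from 0.790 to 1.54 CPM in TNTProx1 (median 1.18), at -0.83 ± 0.29 (adjusted p = 0.242). Both genes overlapped between groups. Themis, which tunes receptor signals in developing T cells, ranged from 0.821 to 4.82 CPM in TNTSham (median 1.49) and from 0.673 to 1.71 CPM in TNTProx1 (median 0.968), at -0.84 ± 0.39 (adjusted p = 0.407). Ubash3a, a negative regulator of receptor signalling, ranged from 0.524 to 3.65 CPM in TNTSham (median 1.51) and from 0 to 0.951 CPM in TNTProx1 (median 0.673), at -1.45 ± 0.62 (adjusted p = 0.361). The 0 was in TNTProx1 4, and the highest TNTSham value of both Themis and Ubash3a was in TNTSham 4. The adaptors Skap1 and Lat stood at -1.10 ± 0.52 and -0.49 ± 0.26, and at -0.54 ± 0.33 and -0.63 ± 0.31 over 10 libraries. Zap70, the kinase that Lck activates, was at 0.12 ± 0.28 and turned to -0.31 ± 0.27 over 10 libraries. The Tec-family kinase Txk was at 0.05 ± 0.39, at 0.29 ± 0.20 over 10 libraries and at -0.20 without TNTProx1 4.

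Prkcq, protein kinase C theta, is made by skeletal muscle as well as by T cells. It ranged from 15.7 to 22.2 CPM in TNTSham and from 12.4 to 24.3 CPM in TNTProx1, at -0.20 ± 0.16 over 13 libraries and -0.54 ± 0.12 over 10 (adjusted p = 0.0685). The 10 skeletal muscle markers summed to between 9295 and 16002 CPM in TNTSham and to between 4487 and 11852 CPM in TNTProx1. With the muscle covariate described below Prkcq was at -0.43 ± 0.26, but that fit can hardly separate muscle from group. The part of muscle in the Prkcq values was not tested.

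The gamma-delta genes had log2 fold changes of opposite sign, neither with an unadjusted p under 0.05 in edgeR. Trdc, the delta constant region, ranged from 0.446 to 7.71 CPM in TNTSham (median 3.85) and from 3.03 to 11.1 CPM in TNTProx1 (median 7.72). In 3 of 6 TNTProx1 libraries it lay above the highest TNTSham library, and the lowest value was in TNTSham 7. Its log2 fold change was 0.89 ± 0.47 (unadjusted p = 0.0781, adjusted p = 0.469), and 1.01 ± 0.54 over 10 libraries. With voom it was 1.18 ± 0.48 (unadjusted p = 0.0271, adjusted p = 0.187). Tcrg-C1, a gamma constant region, ranged from 0.0982 to 0.703 CPM in TNTSham (median 0.530) and from 0.0235 to 0.581 CPM in TNTProx1 (median 0.249). Its log2 fold change was -0.70 ± 0.61 (adjusted p = 0.682) on counts of 1 to 28. Its values are uncertain, because 46.0% of its 36-base words also occur in other genes, 30.1% in Tcrg-C2. Bases 1 to 60 of both are shown, with the differing base in capitals.

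Tcrg-C1: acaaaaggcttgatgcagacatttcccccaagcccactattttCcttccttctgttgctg
Tcrg-C2: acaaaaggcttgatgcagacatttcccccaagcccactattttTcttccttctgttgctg

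Ratios between members within a library were compared for 4 pairs, with a two-sided exact permutation test that enumerated 1716 assignments of the libraries to the groups. The log2 ratio of Trdc to Trac, each CPM plus 0.5, was -0.10 ± 1.22 for TNTSham (SD, n = 7) but 1.33 ± 0.76 for TNTProx1 (SD, n = 6), a difference of 1.43 (exact permutation p = 0.0286, adjusted over the 4 pairs p = 0.114). It lay between -2.21 and 1.44 in TNTSham and between 0.01 and 2.0 in TNTProx1, so the groups overlapped. The ratio differed by 0.18 for Tcrg-C1 to Trac (exact permutation p = 0.502), by 0.11 for Foxp3 to Cd3e (exact permutation p = 0.629) and by -0.09 for Cd8a to Cd4. Tcrg-C1 lay between 0.0235 and 0.703 CPM, so the added 0.5 CPM damps any change in it. The ratio of Tcrg-C1 to Trac therefore cannot decide whether Tcrg-C1 moved against Trac. With 0.1 CPM added in place of 0.5, its difference was -0.0349. Over 10 libraries the differences were 1.77 for Trdc to Trac (exact permutation adjusted p = 0.167), 0.29 for Tcrg-C1 to Trac, 0.37 for Foxp3 to Cd3e and -0.59 for Cd8a to Cd4. None of the 4 passed the adjusted threshold over 13 or over 10 libraries.

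**Figure D4:**
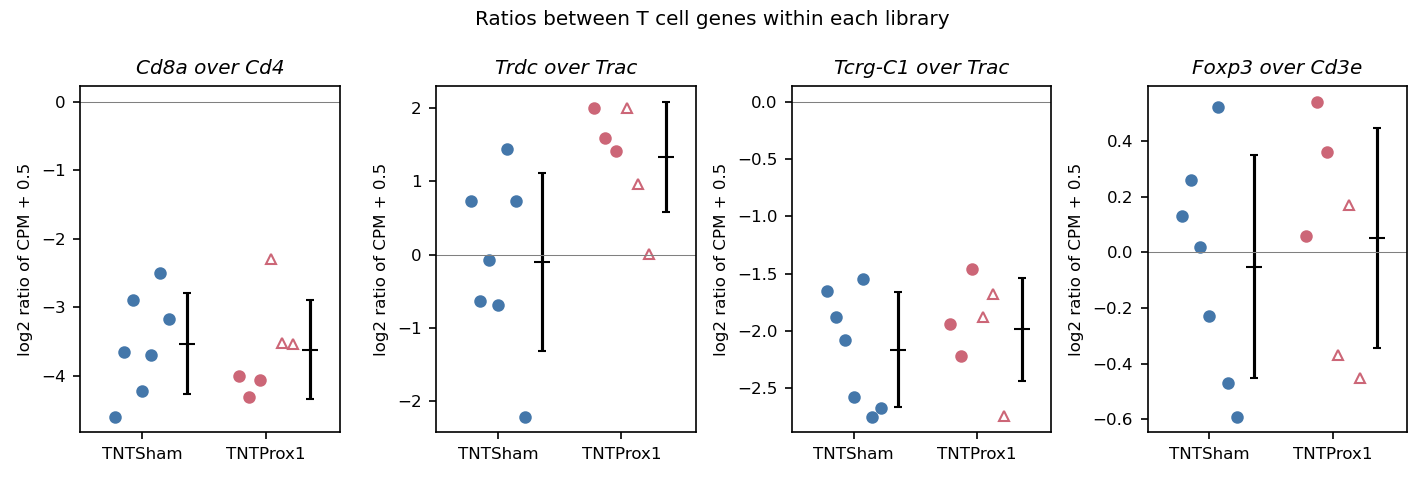
Log2 ratio of CPM + 0.5 between pairs of T cell genes in each library, with circles for libraries, open triangles for TNTProx1 4 to 6, and the group mean with SD beside the points. For Trdc over Trac the means are -0.10 and 1.33 with overlapping points. For the other 3 pairs the means over 13 libraries differ by at most 0.18. Tcrg-C1 lay between 0.0235 and 0.703 CPM, so the added 0.5 damps any change in it.

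Among the costimulatory receptors were the member of smallest p, Icos, and the higher member Tnfrsf9. Icos, a CD28 relative on activated and regulatory T cells, ranged from 4.29 to 12.3 CPM in TNTSham (median 7.64) and from 2.78 to 4.56 CPM in TNTProx1 (median 3.91). In 5 of 6 TNTProx1 libraries it lay below the lowest TNTSham library. The mean was 7.39 ± 2.70 CPM over TNTSham (SD, n = 7), against 3.76 ± 0.614 CPM over TNTProx1 (SD, n = 6), a log2 fold change of -0.97 ± 0.24 (adjusted p = 0.123) and -0.96 ± 0.31 over 10 libraries. Tnfrsf9, the receptor 4-1BB that appears after activation, ranged from 1.62 to 4.35 CPM in TNTSham (median 2.64) and from 3.78 to 5.04 CPM in TNTProx1 (median 4.77). It lay above the highest TNTSham library in 5 of 6 TNTProx1 libraries. Its log2 fold change was 0.64 ± 0.23 (adjusted p = 0.267), and 0.61 ± 0.28 over 10 libraries. Tnfrsf4, the receptor OX40, ranged from 3.21 to 6.04 CPM in TNTSham (median 3.79) and from 2.67 to 4.38 CPM in TNTProx1 (median 2.84), at -0.43 ± 0.19 (adjusted p = 0.393). It was below the lowest TNTSham library in 5 of 6 TNTProx1 libraries, the exception being TNTProx1 5. Cd28, the main costimulatory receptor of resting T cells, ranged from 5.14 to 9.32 CPM in TNTSham (median 7.97) and from 3.58 to 9.26 CPM in TNTProx1 (median 5.48), at -0.27 ± 0.23 (adjusted p = 0.677). Tnfrsf18, the receptor GITR, was at -0.10 ± 0.26, and at -0.54 ± 0.28 over 10 libraries. Cd27, a receptor of naive and memory T cells, was at 0.04 ± 0.41 and turned to -0.17 ± 0.33 over 10 libraries. The median of the 6 was -0.18, and -0.40 over 10 libraries.

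The 3 regulatory genes were all lower by sign, against 52.3% of all genes, with a median of -0.34. Among them 1 was lower at an unadjusted p under 0.05, against 3.92% of all genes. Ctla4, the inhibitory receptor that competes with Cd28, ranged from 2.20 to 7.64 CPM in TNTSham (median 4.19) and from 1.90 to 3.80 CPM in TNTProx1 (median 2.55), at -0.76 ± 0.29 (adjusted p = 0.304). Foxp3, the transcription factor of regulatory T cells, ranged from 1.54 to 5.69 CPM in TNTSham (median 3.63) and from 1.81 to 4.80 CPM in TNTProx1 (median 2.71), at -0.31 ± 0.29 (adjusted p = 0.699). Il2ra, the alpha chain of the interleukin-2 receptor, ranged from 4.0 to 12.7 CPM in TNTSham (median 6.75) and from 3.51 to 7.92 CPM in TNTProx1 (median 6.13), at -0.34 ± 0.26 (adjusted p = 0.637). All 3 overlapped between groups. Of Foxp3, 15.8% of the 36-base words also occur in the noncoding gene Flicr.

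Of the remaining members, Il7r, the receptor for the survival cytokine interleukin-7, ranged from 6.94 to 27.5 CPM in TNTSham (median 12.1) and from 7.53 to 13.4 CPM in TNTProx1 (median 9.97), at -0.49 ± 0.26 (adjusted p = 0.467). The interleukin-2 receptor beta chain Il2rb was at 0.05 ± 0.21 and turned to -0.09 ± 0.24 over 10 libraries. Bcl11b, which commits cells to the T lineage and is also made by keratinocytes, was at -0.25 ± 0.21 but at 0.27 with the muscle covariate described below, and Tcf7, a factor of naive and memory T cells, at 0.16 ± 0.13. Per kilobase Bcl11b stood at 10.5 ± 1.30 CPM and Tcf7 at 5.09 ± 0.683 CPM in TNTSham (SD, n = 7), both above Cd3e at 0.933 ± 0.402. Which cells of the tissue made the RNA of Bcl11b and Tcf7 was not tested. Whether the role groups differ from one another in response was not tested.

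Other genes of T cell biology were read from lists, none of whose genes passed the adjusted threshold in edgeR. Their counts at an unadjusted p under 0.05 stand against 8.33% of all genes higher and 3.92% lower. Of 29 further genes of receptor signalling, 12 were higher and 17 lower, with 3 and 5 at an unadjusted p under 0.05 and a median of -0.06. Over 10 libraries the balance turned, with 17 higher, 12 lower and a median of 0.07. Tespa1, an adaptor of receptor signalling, averaged 5.31 ± 0.960 CPM over TNTSham (SD, n = 7), against 2.81 ± 0.807 CPM over TNTProx1 (SD, n = 6), at -0.92 ± 0.21 (adjusted p = 0.114), and -0.60 ± 0.19 over 10 libraries. Trat1, an adaptor bound to the receptor, was at -1.50 ± 0.48 (adjusted p = 0.202). Of 9 inhibitory receptors and exhaustion genes 7 were tested and 0 had an unadjusted p under 0.05. By sign 2 were higher and 5 lower, with a median of -0.04. Over 10 libraries 8 were tested, with 6 higher, 2 lower and a median of 0.30. There 1 was higher and 1 lower at an unadjusted p under 0.05, against 9.34% and 12.1% of all genes. Tigit was at -0.78 ± 0.60 (-1.22 ± 0.36 over 10 libraries) and the ectonucleotidase Entpd1 at 0.35 ± 0.17. Of 17 helper lineage factors and cytokines 9 were tested, with 1 higher and 4 lower at that threshold. The nuclear receptor Rora was at -0.40 ± 0.16 (adjusted p = 0.314), and -0.62 ± 0.17 over 10 libraries. Ifng, Il4, Il13 and Il17a, the defining cytokines of the helper classes, were too low to test, with at most 19 counts in any library.

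Of 14 homing and residency genes 13 were tested, with 3 higher and 3 lower at an unadjusted p under 0.05. S1pr1, the receptor that draws lymphocytes out of tissue, averaged 49.4 ± 13.5 CPM over TNTSham (SD, n = 7), against 74.1 ± 7.79 CPM over TNTProx1 (SD, n = 6), at 0.58 ± 0.15 (adjusted p = 0.132). S1pr1 is also made by endothelium. All 8 endothelial markers were higher at an unadjusted p under 0.05, against 8.33% of all genes. DESeq2 called 5 of the 8 higher and voom 4, where they called 450 and 425 of the 22876 genes higher. The 8 markers summed to between 337 and 635 CPM in TNTSham and to between 613 and 827 CPM in TNTProx1. Their part in the S1pr1 values was not tested. Selplg, the selectin ligand, was at 0.47 ± 0.16 (adjusted p = 0.248), and 0.25 ± 0.17 over 10 libraries. Of 10 costimulatory ligands and cytokines 9 were tested, and 8 of the 9 were higher by sign with a median of 0.26. Tnfsf4, the ligand of Tnfrsf4, was at 1.15 ± 0.46 (adjusted p = 0.322) on counts of 5 to 49, and Il7, the ligand of Il7r, was at 0.33 ± 0.19. Of 14 further gamma-delta and innate-like T cell genes 8 were tested, with 1 at an unadjusted p under 0.05. That gene was Zbtb16, the factor PLZF of innate-like T cells, which averaged 50.2 ± 12.2 CPM over TNTSham (SD, n = 7), against 25.6 ± 7.27 CPM over TNTProx1 (SD, n = 6), at -0.97 ± 0.21 (adjusted p = 0.104). This was far above Cd3e, at 3.81 ± 1.64 CPM over TNTSham, and which cells of the tissue made the Zbtb16 RNA was not tested. The scavenger receptor Cd163l1 was at -0.95 ± 0.67, and at -0.34 ± 0.54 over 10 libraries. DESeq2 called Zbtb16 and Tespa1 lower (adjusted p = 0.00295 and 0.00318) and S1pr1 higher (adjusted p = 0.0265). limma's voom called 2 genes of the helper list lower, Rora among them (adjusted p = 0.046), and 1 of the signalling list higher, the transcription factor Nfatc1 (adjusted p = 0.0401), which is named here after its value was seen. Over all genes DESeq2 called 0.726% lower and voom 0.647%.

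Markers of the other cell types in the tissue were read beside the T cell genes. Of all tested genes, 52.3% were lower by sign over 13 libraries and 50.2% over 10. The 12 natural killer and cytotoxic markers summed to between 12.4 and 16.9 CPM in TNTSham and to between 10.2 and 23.0 CPM in TNTProx1, and 7 of 11 tested were higher by sign. The 8 B cell markers summed to between 35.9 and 85.4 CPM and to between 28.3 and 95.1 CPM, with 7 of 8 lower by sign. Over 10 libraries the B cell markers turned, with 5 higher, 3 lower and a median of 0.04. The 10 macrophage markers summed to between 965 and 1619 CPM and to between 1110 and 1579 CPM, with 9 of 10 higher by sign. Of these, 6 had an unadjusted p under 0.05, against 8.33% of all genes higher. The skeletal muscle markers given above were lower by sign in 9 of 10. Of these, 5 had an unadjusted p under 0.05, against 3.92% of all genes lower. DESeq2 called 4 of them lower, against 0.726% of all genes. Keratinocyte markers were lower by sign in 7 of 8. The keratinocyte sum lay between 28673 and 44348 CPM in TNTSham and between 6552 and 58661 CPM in TNTProx1. The 6 fibroblast markers were higher by sign in 6 of 6, and the 6 mast cell markers in 4. Over 10 libraries the mast cell markers turned, with 1 higher, 5 lower and a median of -0.32. No marker was at 0 in every library. With the summed muscle level as a covariate, the median of the 37 T cell genes was -0.79 and 11 were lower at an unadjusted p under 0.05, against 1.46% of all genes. No member passed the adjusted threshold in that fit. The muscle sum was itself lower in most TNTProx1 libraries, so the fit can hardly separate muscle from group. Standard errors were larger, at 0.48 for Cd3e against 0.34 without the covariate. The part of these cell types in the T cell values was not tested.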

How the data were processed

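Total RNA-seq of mouse tail tissue was deposited as 1 table of raw counts per gene, 55357 genes by 13 libraries (7 TNTSham, 6 TNTProx1), in which the authors counted reads with featureCounts of Subread 2.0.2 after fastp 0.20.1 and HISAT2 2.2.1 on GRCm39, per the submitters' processing notes; DESeq2 1.34.0 and R 4.1.2 are named there too. Per the labels' protocols, RNA was depleted of ribosomal RNA and libraries were stranded. The strand setting, annotation release and treatment of multi-mapped reads for counting were not given in the sources used here. Groups came from the labels. Symbols and exon lengths came from GENCODE M21 on GRCm38, matched by gene ID for 52081 genes.

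Deposited counts were fitted across all genes with edgeR 4.0.16 (R 4.3.3; filterByExpr, TMM, quasi-likelihood F test, group only), with Benjamini-Hochberg adjustment and a threshold of 0.05. DESeq2 1.42.0 and limma 3.58.1 (voom with quality weights) were alternatives, with other scalings, filters, a muscle covariate, 10 libraries and each library left out. The fit was tested on simulated data. The ratio pseudocount was 0.5 CPM. A common dispersion of 0.131 and 29691929 to 48007392 counts per library set the precision. Members and lists were chosen with earlier results of these data known. Named in full were 12 members set by name and further members with an unadjusted p under 0.05, within the 10 of smallest p, and from each pathway list the 2 genes of smallest p. Some list genes were also described after their values were seen, as stated beside them. Some genes that the rule would name are not reported here.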

Additional observations from a re-analysis of the deposited data

Results flagged for a closer look

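Within each group, the gap of the highest or lowest library to its neighbour was compared with the group's range by Dixon's test, over 82 groups of values. It marked 11, against a nominal rate of about 1 in 20 for independent, normally distributed values. The genes share the same libraries, so the groups of values are not independent. The 11 are therefore no measure of an excess over chance. In TNTSham the high library was TNTSham 4 in 7 of the 11: Cd3g at 4.15 CPM (next 2.42), Trac at 6.51 (next 3.92), Cd5 at 6.72 (next 4.14), Themis at 4.82 (next 2.39), Ubash3a at 3.65 (next 1.68), Skap1 at 4.99 (next 2.74) and Cd27 at 1.28 (next 0.796). In TNTProx1 the high library was TNTProx1 4 for Cd3e at 6.33 CPM (next 2.66), Cd8a at 2.41 (next 0.92) and Cd6 at 4.73 (next 2.49). It was TNTProx1 5 for Tnfrsf4 at 4.38 CPM (next 3.04). Of genes with an expected count of at least 20, TNTSham 4 had 0 without a count and TNTProx1 4 had 1383.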

How the results depend on the processing

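No paired analysis was possible because the labels give no replicate numbers; the numbers in the library names only follow the order of the samples within a group and pair nothing. Over all genes, edgeR called 0 at the adjusted threshold, against 616 with DESeq2, 573 with voom and quality weights, 1 without a filter, and 0 to 589 when single libraries were left out (589 without TNTProx1 1, 34 without TNTSham 5). At an unadjusted p under 0.05 the 2802 genes became 4369 without a filter, 4512 with voom, 663 with the muscle covariate, 5116 over 10 libraries and 2090 to 4057 with single libraries left out. Of the members, DESeq2 called 1, and 0 to 1 were called with a library left out, the 1 being Icos without TNTProx1 1 (edgeR adjusted p = 0.0474). Members lower at an unadjusted p under 0.05 numbered 4 to 11 with a library left out. The number was 4 without TNTSham 4, against 2.96% of all genes, and 11 without TNTProx1 4, against 3.88%. It was also 11 without TNTSham 3 and 11 without TNTSham 5. Members higher at that threshold numbered 2 with voom, 0 with the muscle covariate, 0 over 10 libraries and 1 to 2 with a library left out. Of all genes, 9.49% were higher with voom, 328 of 22876 with the muscle covariate and 9.34% over 10 libraries. Members lower by sign numbered 25 to 32 in every setting run. With the filter of at least 1 CPM in 6 libraries the number was 26, out of fewer members, because Cd8a and some others were dropped. The median of the members lay between -0.46 and -0.21 with a library left out, and at -0.79 with the muscle covariate. The Trdc to Trac difference ranged from 1.08 to 1.69 with a library left out, and without TNTSham 5, at 1.69, its adjusted exact permutation p was 0.0433. The Cd8a to Cd4 difference ranged from -0.35 to 0.0854 with a library left out, and that of Tcrg-C1 to Trac was -0.0349 with a pseudocount of 0.1. Cd4 was at 0.03 with voom, 0.25 over 10 libraries and -0.19 to 0.14 with a library left out. Cd8a was at -0.0050 with DESeq2, -0.0061 with its size factors, -0.0130 with upper-quartile scaling, -0.77 with voom, -0.64 with the muscle covariate, -0.53 over 10 libraries and -0.52 to 0.19 with a library left out. With the muscle covariate Selplg was at -0.11, Tnfrsf9 at 0.27, Zbtb16 at -0.49, Trat1 at -2.68 and Cd163l1 at -0.03. With voom Zap70 was at -0.31, Cd27 at -0.49 and Il2rb at -0.32. The cause of these shifts was not tested. Counts of at most 28 in any library limit Cd8b1 and Tcrg-C1.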

Other observations

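Some genes of the lists were described after their values were seen. Ccr4, a skin-homing receptor of helper and regulatory T cells, averaged 2.78 ± 1.32 CPM over TNTSham (SD, n = 7), against 1.31 ± 0.734 CPM over TNTProx1 (SD, n = 6), a log2 fold change of -1.09 ± 0.38 (edgeR adjusted p = 0.251) that was -1.76 ± 0.40 over 10 libraries. Ccr6, a homing receptor of interleukin-17 producing T cells, was at -1.33 ± 0.53 (edgeR adjusted p = 0.322). Itgae, an integrin of tissue-resident T cells, was at -0.62 ± 0.27 (edgeR adjusted p = 0.375). Trdv4, a variable segment of the epidermal gamma-delta receptor, had counts of 0 to 47 and a log2 fold change of 0.53 ± 0.57, while Tcrg-V5, the gamma segment of that receptor, had at most 3 counts in any library. Il10, an inhibitory cytokine, was at 1.06 ± 0.48 over 13 libraries (edgeR adjusted p = 0.39) and at -0.01 ± 0.36 over 10. Tnfsf9, the ligand of Tnfrsf9, was at 0.60 ± 0.59, with a 0 in 1 library.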
